A study of Anas platyrhynchos x Cairina moschata with 205 samples.

Results

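Livers of mule duck embryos were compared at embryonic day 20 (E20) between a thermal manipulated group (TM), whose eggs were kept 1 °C warmer for 16 h per day from E13 to E27, and a control group kept at a constant temperature throughout. The comparison holds 16 of the 205 livers of the series, 8 TM and 8 control, and those genes of the 81-gene panel that were measured in 6 or more livers of both groups, which left 77. All livers came from mule ducks, the hybrid used for foie gras, and were taken 7 days after the start of the stimulus and 1 h after the daily rise in temperature. Each group had 1 incubator, so temperature and incubator cannot be told apart, and each p-value reflects only how livers of a single incubator vary. Expression was measured by high-throughput quantitative PCR and is given as log2 relative expression. On this scale 1 unit equals 1 PCR cycle, which the ratios take as a doubling of the transcript for every gene.

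After these 7 days ELP3, an acetyltransferase of the Elongator complex, stood in TM livers at 0.412 times its level in control livers. It was the only gene past the Benjamini-Hochberg correction with limma, in the deposited ratios but not under every choice of processing. With the exact permutation test and all livers 0 genes passed that correction (8 unadjusted). Without TM replicate 1, a liver in which few genes were measured, ELP3 and the malic enzyme ME were among the genes past it. HGF, FGFR2, TYMS, HSP90AA1, HSPA5 and IL18 were higher in the TM group by 1.29-fold to 3.81-fold at an unadjusted p, with no gene separating the groups completely. The highest of these, IL18, was 3.25-fold higher without TM replicate 1. The calls of HSP90AA1, HSPA5 and IL18 were lost when ratios that had been left blank were filled in from the deposited Ct. Because whole livers were measured, fewer cells of a type and less RNA per cell cannot be told apart.

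The embryonic liver grows quickly, stores yolk lipids and makes most of the plasma proteins. Heat is sensed in cells through heat shock factors, which switch on chaperones such as HSP90 and HSP70 that refold proteins, while the endoplasmic reticulum has chaperones of its own. In birds the embryonic liver relies largely on fatty acids for energy, which are oxidized in mitochondria.

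The quality of the 16 livers was examined first. One liver, TM replicate 1, stood apart, with 26 ratios and a median Ct of 23.2 cycles (the Ct counts the amplification cycles needed for detection, so a higher Ct means less template). The other 15 livers had 71 to 80 ratios and median Ct of 18.7 to 20.3. Albumin, the main secretory product of hepatocytes, was detected at 22.5 cycles in TM replicate 1 and at 6.85 to 8.73 cycles in the other livers. Of the 6 hepatocyte markers, HNF4, CYP2C, LIPC and DIO1 had no Ct in that liver. Luciferase, an exogenous RNA added before reverse transcription, was the only one of its 4 reference genes with a Ct, at 21.03 cycles, within the range of 20.99 to 23.2 of the other livers. In the other TM livers luciferase had a mean Ct of 22.14, beside 22.05 for HPRT1, 18.75 for STAB1 and 17.98 for USP9X. A reference of luciferase alone thus gives higher ratios than all 4 together. The ratios of TM replicate 1 are therefore not on the same scale as those of the other livers. The counts, and each gene whose call, direction or value was moved by more than 1.5 times by this liver, are therefore given with and without it.

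**Figure D1:**
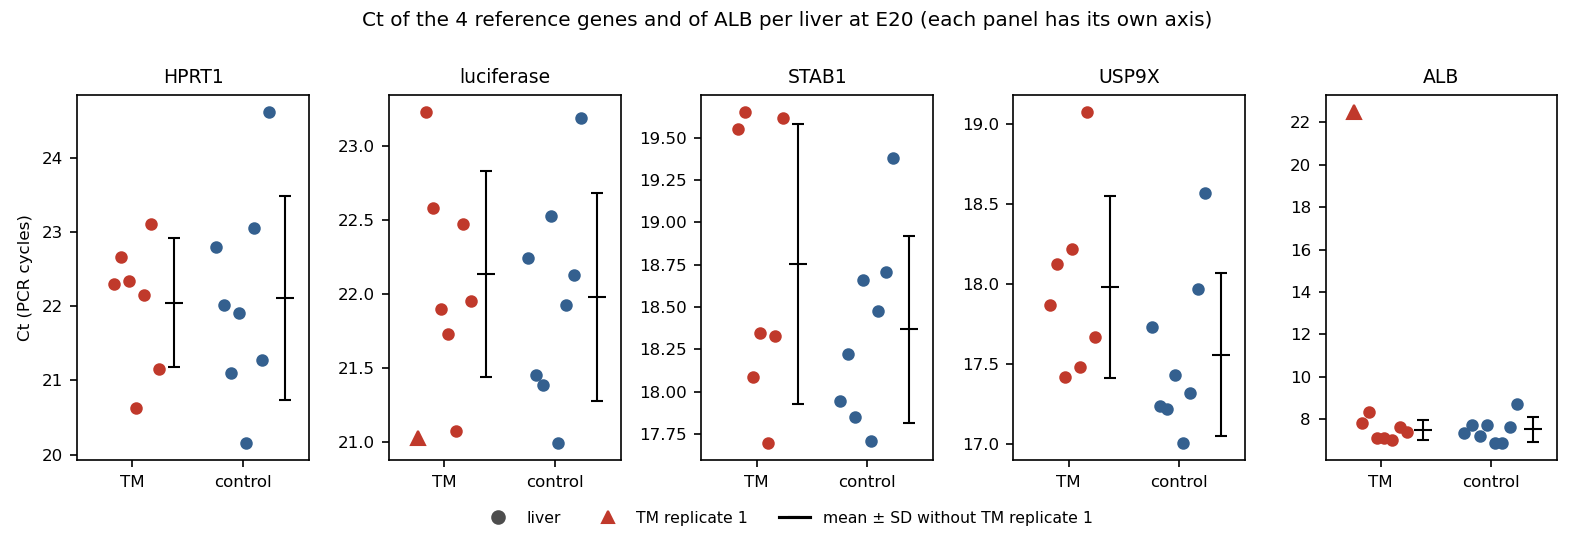
Ct in PCR cycles (vertical axis, a separate scale in each panel) of the 4 reference genes and of ALB in each TM and control liver at E20, with the mean ± SD without TM replicate 1. TM replicate 1 (triangle) is present only for luciferase and for ALB, where it sits at 22.5 cycles above all other livers.

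The reference genes on which the ratios rest did not pass a test between the groups. USP9X, a deubiquitinase, had 17.98 ± 0.569 cycles in the TM group (SD, n = 7) and 17.56 ± 0.508 in control livers (n = 8, exact two-sided permutation test, p = 0.156). STAB1, which clears waste molecules in sinusoidal endothelial cells, had 18.8 ± 0.825 cycles in TM livers against 18.4 ± 0.552 in control livers (exact permutation p = 0.3002). HPRT1, of purine salvage, and luciferase differed by −0.07 and 0.02 cycles (exact permutation p = 0.912 and 0.965). The row called STAB1 carries the full name of its paralogue Stabilin 2 in the deposited annotation, so which of both was amplified is uncertain.

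Some ratios had been left blank although a Ct was deposited, by a rule not given in the sources used here. In the panel this concerned 33 values of 29 genes. All 16 blanks of control livers lay above the highest value kept for that gene in the control group. Among the 17 blanks of TM livers, 11 lay above and 6 below the values kept, and 5 of the 6 were in TM replicate 1. Control replicate 4 had 6 blanks, which include HSP90AA1, HSPA5 and IL18. The blanks stayed blank in the values below, and each call that their inclusion ends is named beside the gene.

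A total of 8 genes out of 77 (10.4%) had an unadjusted p under 0.05 in the exact permutation test, which is the cutoff stated in the methods, 7 of them higher in the TM group (9.09%) and 1 lower (1.3%). Without TM replicate 1 the number was 12 (15.6%), with 11 higher (14.3%) and 1 lower, and it held all 8 of the first. The additional ones were ALB, BINP3, ME and TIA1. With the ratios recomputed from every deposited Ct, 4 of 78 genes passed (5.13%), namely FGFR2, HGF and TYMS, which were higher (3.85%), and ELP3, which was lower (1.28%), and 7 (8.97%) when TM replicate 1 was also left out. At E12, the day before the first rise in temperature, 6 of 78 genes (7.69%) passed the same exact test, 4 higher (5.13%) and 2 lower (2.56%), and none of the 8 genes was among them. Whether the counts at E12 and E20 differ was not tested. With all livers and the Benjamini-Hochberg correction 1 gene, ELP3, passed with limma (1.3%), where 9 passed unadjusted (11.7%). With the exact test 0 passed that correction, at a smallest adjusted p of 0.0673. Without TM replicate 1, ELP3 and ME were among the genes past it with the exact test (adjusted p = 0.0359 each). With limma ELP3 alone passed then as well (1.3%).

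The groups overlapped for every gene, as in 0 of 77 genes all TM livers lay above or below all control livers, with or without TM replicate 1. The median difference over the 77 genes was 0.08, or 0.12 without TM replicate 1, with 48 genes positive and 29 negative. When the mean of the panel was subtracted from every liver, with TM replicate 1 left out, this median was −0.05, and 5 of 6 genes that passed were higher, FGFR2, HGF, IL18 and ME among them, and ELP3 was lower. With all livers, where only 15 genes were shared for centring, the median was −0.11 and of 4 genes that passed IL18 was higher and ELP3, HNF4 and TET1 were lower.

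**Figure D2:**
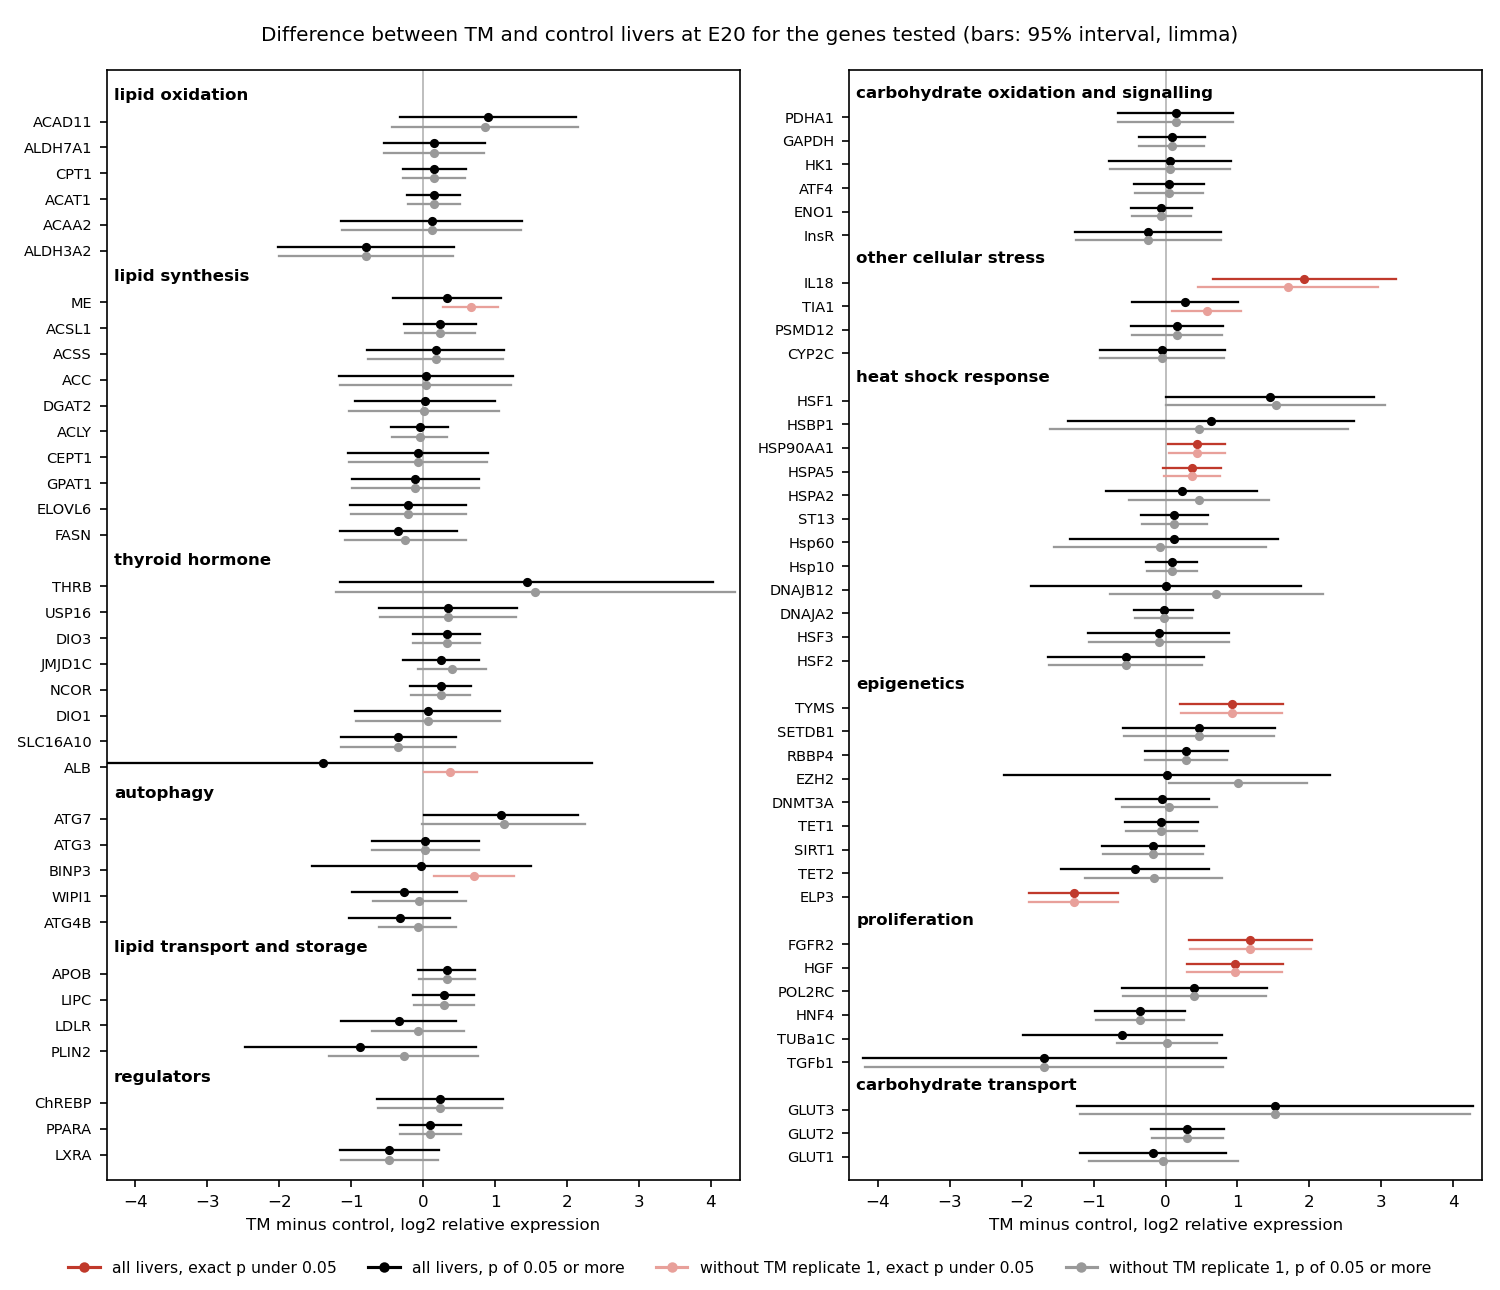
Difference TM minus control in log2 relative expression (horizontal axis) for the genes tested at E20, grouped by pathway, with the 95% interval from limma. The upper bar of each gene (black, or red where the exact p was under 0.05) holds all livers, and the lower bar (grey or pale red) leaves out TM replicate 1. Most intervals cross 0. The interval of ALB with all livers runs beyond the left edge.

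Among the 9 genes of epigenetic marks, 1 fell and 1 rose, beside 10.4% of the panel that passed. The median difference was −0.04 (0.08 over all genes), or 0.05 without TM replicate 1 (0.12). ELP3, which acts in tRNA modification and histone acetylation, had −1.75, −0.64 and 0.09 as lowest, median and highest of 7 TM livers, against −0.17, 0.48 and 0.98 of 8 control livers. Thus 5 of the 7 TM livers lay below every control liver, and all 8 control livers lay above the TM median. ELP3 averaged −0.80 ± 0.72 in TM livers and 0.48 ± 0.37 in control livers, a difference of −1.28 (95% interval −1.90 to −0.66, exact permutation p = 0.000932, adjusted p from limma = 0.0406). TM replicate 1 had no value for ELP3, and without that liver the adjusted p was 0.0345 from limma and 0.0359 from the exact test. Over the alternatives of processing the difference lay between −1.52 and −1.21 and the exact test was passed in 13 of 13, several of which leave the values of ELP3 unchanged. The adjusted p from limma ran from 0.0162 to 0.445 over these fits, and was above the threshold at 0.0554 with all deposited Ct, at 0.0635 in one fit of the second trial, at 0.0720 without control replicate 4, at 0.202 with luciferase as the only reference and at 0.445 with the replicate number as a block.

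TYMS, thymidylate synthase, which supplies thymidine nucleotides for DNA replication, was 1.89-fold higher in the TM group. It had 0.07, 0.50 and 1.48 in TM livers (lowest, median and highest of 7) against −1.78, −0.26 and 0.46 in control livers (n = 8). All TM livers lay above the control median and 4 above every control liver, and the lowest control value, of replicate 8, stood apart from the next at −0.52. The difference was 0.92 (exact permutation p = 0.0121, adjusted p from limma = 0.190), or 0.71 without control replicate 8. The exact call was lost with luciferase as the only reference and when livers were centred on the panel. EZH2, the methyltransferase of lysine 27 of histone H3, had −0.65 ± 2.95 in TM livers (n = 8) and −0.66 ± 0.71 in control livers (n = 7). TM replicate 1 was at −7.56, and without it the difference was 1.01, short of the threshold (exact permutation p = 0.0548). The DNA demethylases TET1 and TET2 and the methyltransferase DNMT3A had differences of −0.06, −0.42 and −0.04, none past the test. Without TM replicate 1 the difference of TET2 was −0.17 and that of DNMT3A turned to 0.05.

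Of the 6 genes of proliferation 2 rose, HGF and FGFR2, beside 10.4% of the panel that passed. The median was 0.02, or 0.21 without TM replicate 1. HGF, the growth factor that stellate cells supply to hepatocytes, had 0.10, 1.01 and 1.48 in TM livers (lowest, median and highest of 7) against −1.03, −0.11 and 0.68 in control livers (n = 8). The 7 TM livers all exceeded the control median and 4 exceeded every control liver. HGF was 1.95-fold higher, a difference of 0.96 with a 95% interval of 0.29 to 1.63 (exact permutation p = 0.0109). FGFR2, a receptor of fibroblast growth factors, had −0.38, 0.62 and 1.24 in TM livers (lowest, median and highest of 7) and −1.86, −0.43 and 0.45 in control livers (n = 8). No control liver reached the TM median, and 3 of the control livers lay between −1.86 and −1.54 and the other 5 between −0.46 and 0.45. FGFR2 was 2.27-fold higher, with a difference of 1.18 (95% interval 0.32 to 2.04, exact permutation p = 0.0152, adjusted p from limma = 0.156). Both calls were kept with all deposited Ct and were lost when all livers were centred on the panel (0.72 for HGF, exact p = 0.0936, and 0.94 for FGFR2, exact p = 0.0544). TGFb1, a cytokine that limits the division of hepatocytes, was spread from −5.12 to 2.58 in 6 TM livers against 0.49 to 2.50 in 6 control livers (exact permutation p = 0.290). HNF4, a transcription factor of hepatocyte identity, had a difference of −0.36 (exact permutation p = 0.239).

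HGF and IL18 belong to the markers of non-parenchymal cells, together with TGFb1 and STAB1. Of the 3 tested 2 passed, which are HGF and IL18 themselves, beside 10.4% over the panel. TGFb1 differed the other way, by −1.69 (exact permutation p = 0.290). The mean Ct of STAB1 was 0.38 cycles higher in TM livers (exact permutation p = 0.3002). The summed relative expression of the list, without STAB1, which served as a reference gene, ran from 2.86 to 10.2 (median 5.59) in 6 TM livers and from 2.13 to 6.99 (median 3.37) in 5 control livers with all markers. Control replicate 4, whose blank IL18 ratio would be 3.404 in log2, was not among these 5. The 6 hepatocyte markers (ALB, APOB, HNF4, CYP2C, LIPC and DIO1) had 0 calls, or 1 without TM replicate 1 (ALB), beside 10.4% and 15.6% over the panel. Their sum ran from 6.98 to 9.30 in 6 TM livers and from 5.04 to 10.4 in 7 control livers. The part of cell composition in the differences of HGF and IL18 was not tested.

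**Figure D3:**
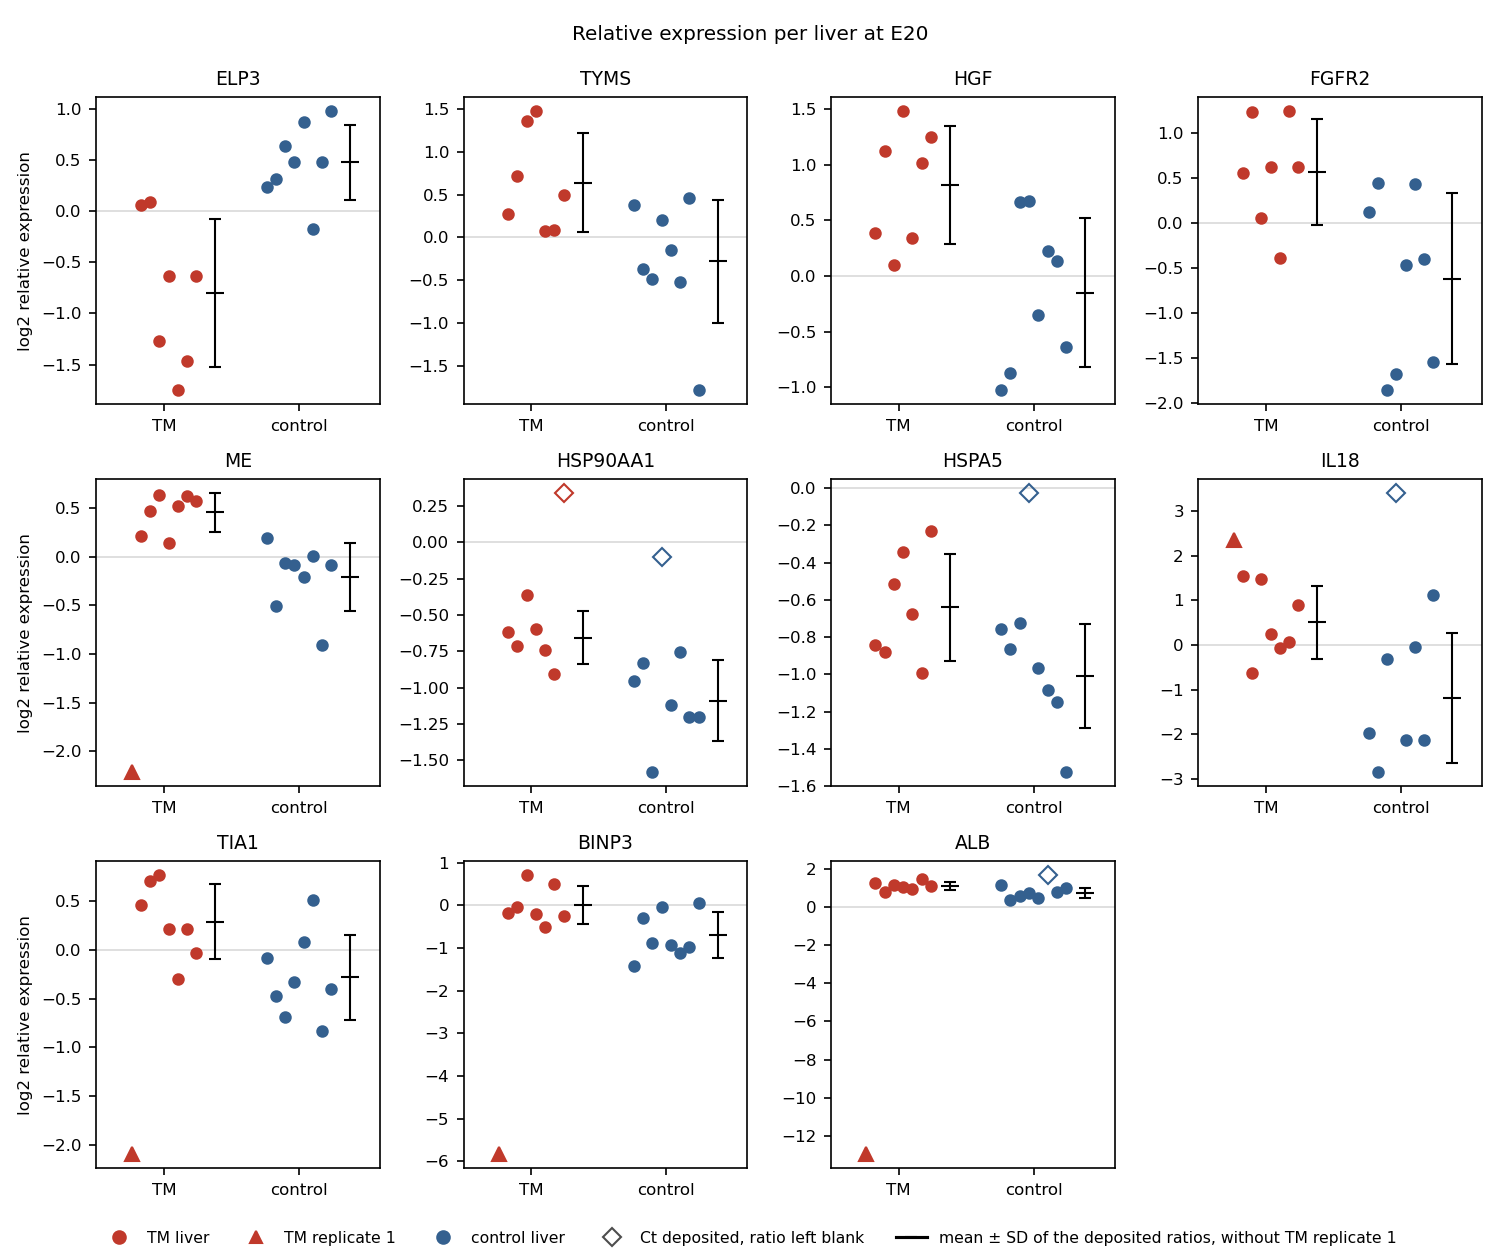
Log2 relative expression (vertical axis, a separate scale in each panel) of 11 genes past the exact test with all livers or without TM replicate 1, in each TM and control liver at E20. Filled points are deposited ratios, triangles TM replicate 1, open diamonds values whose ratio was left blank, and black bars the mean ± SD of the deposited ratios without TM replicate 1. For ME, TIA1, BINP3 and ALB the triangle lies below all other livers.

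Among the genes of lipid oxidation, CPT1, which admits fatty acids to mitochondria, differed by 0.16 (exact permutation p = 0.399), and ACAD11, an acyl-CoA dehydrogenase, by 0.90 with SDs of 1.00 and 1.41 (exact permutation p = 0.166).

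Of the 10 genes of lipid synthesis tested, 0 passed with all livers (10.4% of the panel, median −0.01) and 1, ME, without TM replicate 1 (15.6%, median −0.02). ME, the malic enzyme that supplies NADPH for fatty acid synthesis, had −2.22, 0.50 and 0.63 in TM livers (lowest, median and highest of 8) against −0.91, −0.08 and 0.20 in control livers (n = 8). The low value was that of TM replicate 1, and the other 7 TM livers all lay above the control median, 6 of them above every control liver. The difference was 0.33 with all livers (exact permutation p = 0.432), where ME passed a rank test (exact Wilcoxon p = 0.0148, unadjusted). The rank test was chosen here by normality and variance, and the paper does not name its test for ME. Without TM replicate 1 the difference was 0.66 (0.46 ± 0.20, n = 7, against −0.21 ± 0.35, n = 8). The exact permutation p was then 0.000466, or 0.0359 after the Benjamini-Hochberg correction, and the adjusted p from limma was 0.0768. ME then also passed with all deposited Ct and with panel centring, while with luciferase as the only reference and all livers its difference was −0.0062. ACLY and FASN, which make acetyl-CoA and palmitate, differed by −0.05 and −0.34, and ACSL1, which activates fatty acids, by 0.23, none past the test.

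SCD1, the desaturase that makes monounsaturated fatty acids, had too few livers for the test. It was measured in 4 TM livers, at −3.24, −1.51, −0.94 and 1.83, and in 5 control livers, at −4.68, −4.08, −3.88, −3.10 and −2.50. Of these TM livers 3 lay above every control liver, and 1 of the 3 was TM replicate 1, at −0.94. The ratio of control replicate 8 was left blank and would be 0.16. With at least 3 livers per group SCD1 passed the exact permutation test (difference 2.69, p = 0.0317). That test held TM replicate 1 and left out the blank ratio, which would lie above every TM liver but the one at 1.83. It was not run without TM replicate 1, where 2 of 3 TM livers lay above every control liver, or with the blank ratio. The call of SCD1 was therefore seen only with both choices, and whether it needs them was not tested. AMBRA1, HK2 and VLDLR also had under 6 livers in the TM group and did not pass at that minimum.

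Among 4 genes of lipid transport and storage and 3 regulators 0 passed, beside 10.4% of the panel. The nearest was APOB, the protein of very low density lipoproteins, with 0.28 ± 0.31 in TM livers (n = 7) and −0.05 ± 0.30 in control livers (n = 8, exact permutation p = 0.0558). LIPC, hepatic lipase, differed by 0.29 (exact permutation p = 0.119). LXRA, a nuclear receptor that promotes lipogenesis, had −0.42 ± 0.65 in TM livers and 0.05 ± 0.61 in control livers, and PPARA, which promotes fatty acid oxidation, differed by 0.10 (exact permutation p = 0.171 and 0.562).

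In the heat shock response 2 of 12 genes rose and 0 fell, beside 9.09% of the panel higher and 1.3% lower. The median was 0.12, or 0.25 without TM replicate 1. HSP90AA1, the inducible cytosolic HSP90, had −0.90, −0.67 and −0.36 in TM livers (lowest, median and highest of 6) against −1.58, −1.12 and −0.76 in control livers (n = 7). Of the 6 TM livers 5 lay above every control liver. The difference was 0.44 or 1.35-fold (exact permutation p = 0.00699, adjusted p from limma = 0.368). TM replicate 8 and control replicate 4 had blank ratios that would be 0.34 and −0.10, each above all livers kept in its group. With both the difference was 0.45 and just short of the threshold (exact permutation p = 0.0573). With panel centring it was 0.23, or 0.30 without TM replicate 1 (exact permutation p = 0.223 and 0.060).

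HSPA5, the HSP70 chaperone of the endoplasmic reticulum also called BiP, had −0.99, −0.68 and −0.23 in TM livers (lowest, median and highest of 7) against −1.53, −0.97 and −0.73 in control livers (n = 7). Although 4 TM livers exceeded every control liver, the lowest TM liver lay below the control median. The difference was 0.37 or 1.29-fold (exact permutation p = 0.0303), and the 95% interval from limma, −0.03 to 0.77, crossed 0. The blank ratio of control replicate 4 would be −0.03, and with it the difference was 0.25 and did not pass (exact permutation p = 0.225). It did not pass without control replicate 8 either (0.28, exact permutation p = 0.0629), and with panel centring the difference was 0.10 (exact permutation p = 0.707).

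HSF1, a transcription factor of the heat shock response, had the largest positive difference of the list, 1.46. Its values were −0.95, 0.10 and 0.75 in TM livers (lowest, median and highest of 8) and −4.54, −1.84 and 1.04 in control livers (n = 7), and it did not pass (exact permutation p = 0.0608, difference 1.53 without TM replicate 1). HSF2 and HSF3 differed by −0.56 and −0.09. The mitochondrial chaperones Hsp10 and Hsp60 differed by 0.08 and 0.11 and the co-chaperones DNAJA2 and ST13 by −0.03 and 0.12, none past the test. Without TM replicate 1 the difference of Hsp60 turned to −0.076. The 95% interval of DNAJA2 was −0.44 to 0.38.

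Of the 4 other genes of cellular stress 1 rose, or 2 without TM replicate 1, beside 10.4% and 15.6% of the panel, with medians of 0.22 and 0.36. IL18, a cytokine of the interleukin 1 family, had −0.63, 0.58 and 2.36 in TM livers (lowest, median and highest of 8) against −2.85, −1.98 and 1.13 in control livers (n = 7). All TM livers lay above the control median, and in control livers 4 lay at −1.98 or below while 3 lay between −0.31 and 1.13. IL18 had the largest difference among the 77 genes, 1.93 or 3.81-fold (95% interval 0.66 to 3.21, exact permutation p = 0.0117). The highest TM value was that of TM replicate 1, whose ratio rests on luciferase alone and is not on the scale of the others. Without that liver the difference was 1.7002 or 3.25-fold (exact permutation p = 0.0216). The blank ratio of control replicate 4 would be 3.404, the highest of all livers. With it the difference was 1.36 and did not pass (exact permutation p = 0.123). TIA1, an RNA-binding protein of stress granules, was at −2.10 in TM replicate 1, and without that liver averaged 0.29 ± 0.39 in TM livers (n = 7) and −0.28 ± 0.43 in control livers (n = 8, exact permutation p = 0.0219). PSMD12, a subunit of the proteasome, and CYP2C, a cytochrome P450, differed by 0.16 and −0.04. CYP2C is named as another cytochrome, CYP2E1, elsewhere in the deposited annotation.

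For autophagy 0 of 5 genes passed (10.4% of the panel), or 1 without TM replicate 1 (15.6% of the panel). This was BINP3, usually written BNIP3, a receptor for the removal of mitochondria. It was at −5.83 in TM replicate 1, and without it averaged 0.01 ± 0.44 in TM livers (n = 7) and −0.70 ± 0.54 in control livers (n = 8), a difference of 0.71 (exact permutation p = 0.0162). The row called ATG7, which carries the full name of ATG13, had −0.05, 0.23 and 1.44 in TM livers (lowest, median and highest of 8) and −2.89, −0.90 and 1.42 in control livers (n = 8, exact permutation p = 0.0589). ATG4B, a protease of autophagosome formation, differed by −0.32 (exact permutation p = 0.379), or −0.076 without TM replicate 1 (exact permutation p = 0.753).

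The 8 genes linked to thyroid hormone had 0 calls and a median of 0.25, beside 10.4% and 0.08 over the panel. Without TM replicate 1 they had 1 call and a median of 0.34, beside 15.6% and 0.12 over the panel. The call was that of ALB, a plasma carrier of the hormone. ALB was at −12.98 in TM replicate 1 and at 0.83 in the next lowest TM liver. The other 7 TM livers averaged 1.13 ± 0.21 against 0.75 ± 0.28 in 7 control livers, a difference of 0.38 (exact permutation p = 0.0163), while with TM replicate 1 the difference was −1.39 (p = 0.996). The blank ratio of control replicate 6 would be 1.69, and with it the call of ALB was lost (0.26, exact permutation p = 0.164). DIO3, the deiodinase that inactivates thyroid hormone, differed by 0.33 and NCOR, a corepressor of its receptors, by 0.25 (exact permutation p = 0.126 and 0.179). DIO1, the activating deiodinase, differed by 0.07 with a 95% interval of −0.94 to 1.08. The receptor THRB had −0.70 ± 1.38 in TM livers and −2.14 ± 3.23 in control livers. Its difference of 1.44 was smaller than the SD of the control group and did not pass (exact permutation p = 0.321).

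In carbohydrate metabolism 0 of 3 genes of transport and 0 of 6 genes of oxidation and signalling passed, beside 10.4% of the panel. Among the transporters, GLUT2, the main glucose transporter of hepatocytes, differed by 0.30 and GLUT3 by 1.52, where the SD of the control group was 3.30 (exact permutation p = 0.197 and 0.345). The 6 genes of oxidation and signalling differed by between −0.24 (InsR, the insulin receptor) and 0.14 (PDHA1, of pyruvate dehydrogenase), with exact permutation p of 0.638 or more. GAPDH, of glycolysis, had 0.44 ± 0.30 in TM livers and 0.35 ± 0.43 in control livers.

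The genes that passed at E20 were followed through the sampling points of the same trial. None of the 8 passed at E12, where differences ran from −0.79 (IL18) to 0.36 (TYMS). At E12 the reference genes HPRT1 and USP9X had lower Ct in the TM group, by −0.86 and −0.63 cycles (exact permutation p = 0.0362 and 0.0337), and their part in the values of E12 was not tested. In an interaction model of E12, E16, E20 and E24 (limma, 80 genes, 61 livers), the TM effect changed between E12 and E20 past the adjusted threshold for 0 genes, and for 4 at an unadjusted p. The smallest p were those of IL18 (change 2.72, adjusted p = 0.320), ELP3 (−1.55, 0.320) and FGFR2 (1.24, 0.345).

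**Figure D4:**
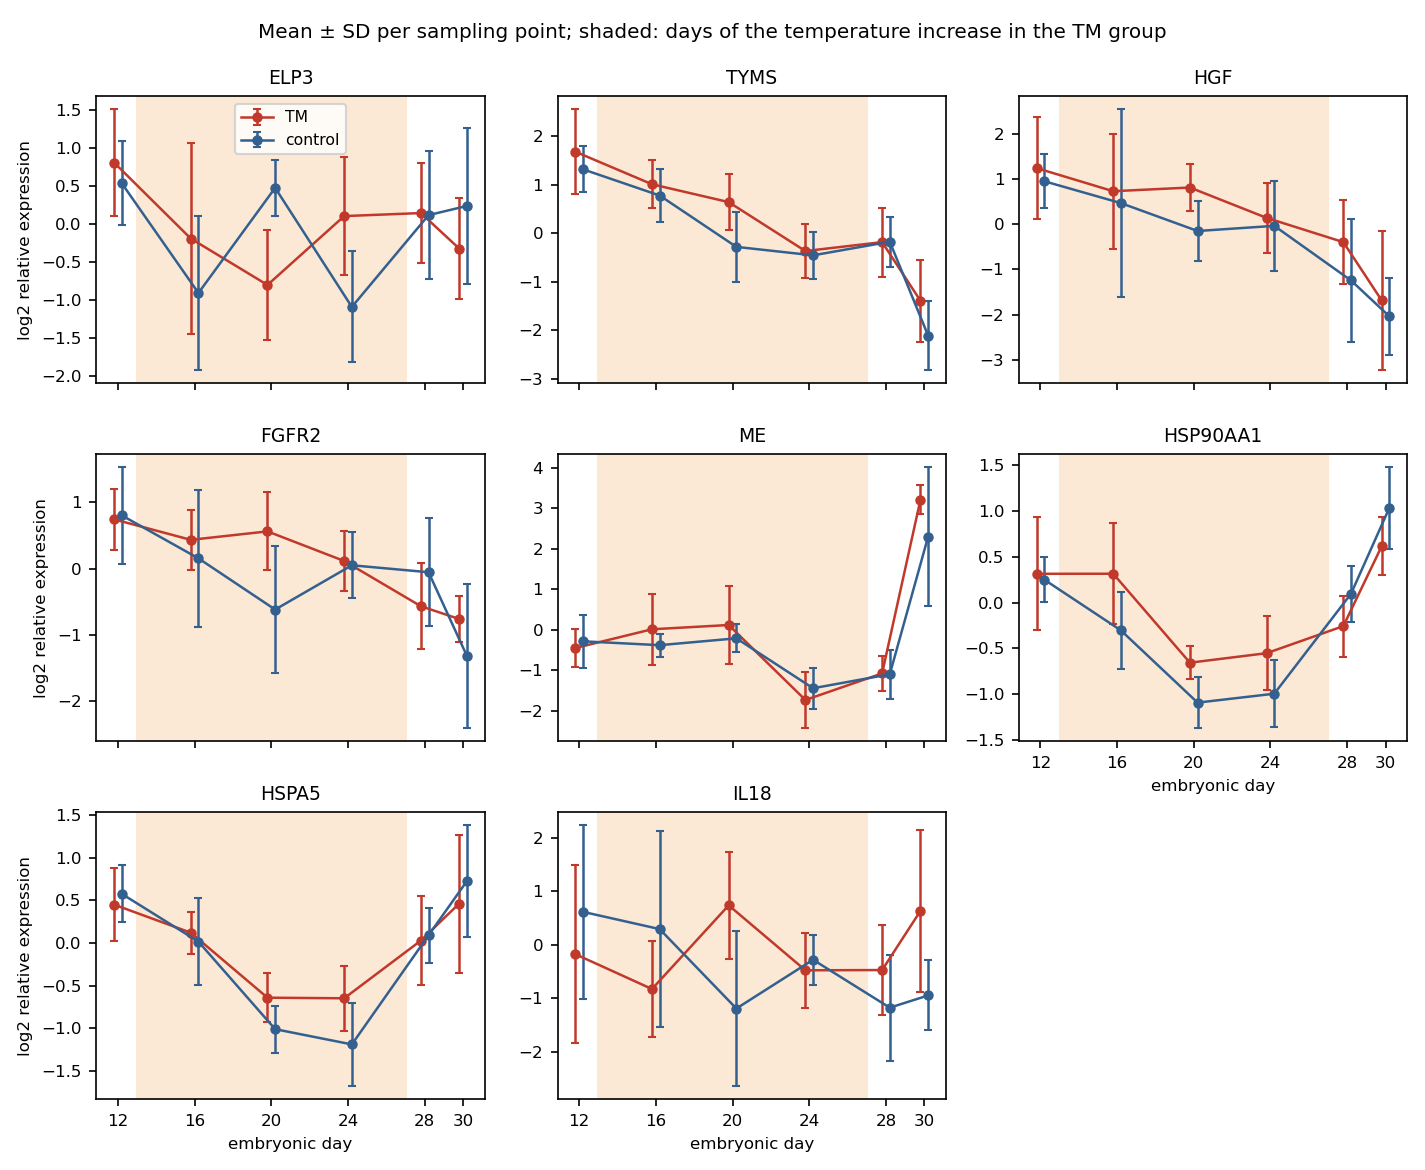
Mean ± SD of log2 relative expression (vertical axis) in TM and control livers against embryonic day (horizontal axis) for 7 genes past the exact test at E20 and ME, with TM replicate 1 included where it had a ratio. The shaded days are those of the daily temperature increase. ELP3 is lower in the TM group at E20 and higher at E24, while HSP90AA1 and HSPA5 are higher at both.

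ELP3 changed side between sampling points. Its mean was −0.19 in TM livers against −0.91 in control livers at E16, which did not pass (exact permutation p = 0.343). The means were −0.80 and 0.48 at E20, and 0.11 and −1.09 at E24. The control mean thus rose to E20 and fell to E24, while the TM mean moved the opposite way and by less. At E24 ELP3 was 1.196 higher in the TM group (n = 8 and 7, exact permutation p = 0.00855). The change of the TM effect, E20 minus E24, was −2.47 (95% interval −3.62 to −1.33, adjusted p from limma = 0.00538, 0.000527 to 0.0561 over the alternatives), and with all deposited Ct it was just above the threshold. Against E16 the change was −1.996 (adjusted p from limma = 0.065).

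For the other genes a change of effect between sampling points did not pass the adjusted threshold. HSP90AA1 and HSPA5 were higher by 0.44 and 0.54 at E24 (exact permutation p = 0.0468 and 0.0250), and the changes from E24 to E20 had 95% intervals of −0.67 to 0.66 and −0.76 to 0.42. At E30, after the stimulus had ended, HSP90AA1 was lower in the TM group by −0.42 (exact permutation p = 0.0490). IL18, FGFR2, HGF and TYMS did not pass at E16 or E24, and of these IL18 was again higher in the TM group at E30, by 1.58 (exact permutation p = 0.0247). Among all 80 genes, the only change past it against E16 (1.25%) was that of CPT1, whose TM effect was 0.16 at E20 and 2.80 at E16 (change −2.64, 95% interval −4.00 to −1.28, adjusted p from limma = 0.0224). At E16 only 4 control livers had CPT1, with a mean of −1.44 ± 2.78 against 1.35 ± 0.47 in 8 TM livers. The change of CPT1 did not pass without control replicate 7 of E16 (adjusted p = 0.217), and over the alternatives ran from 0.0217 to 0.237.

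**Figure D5:**
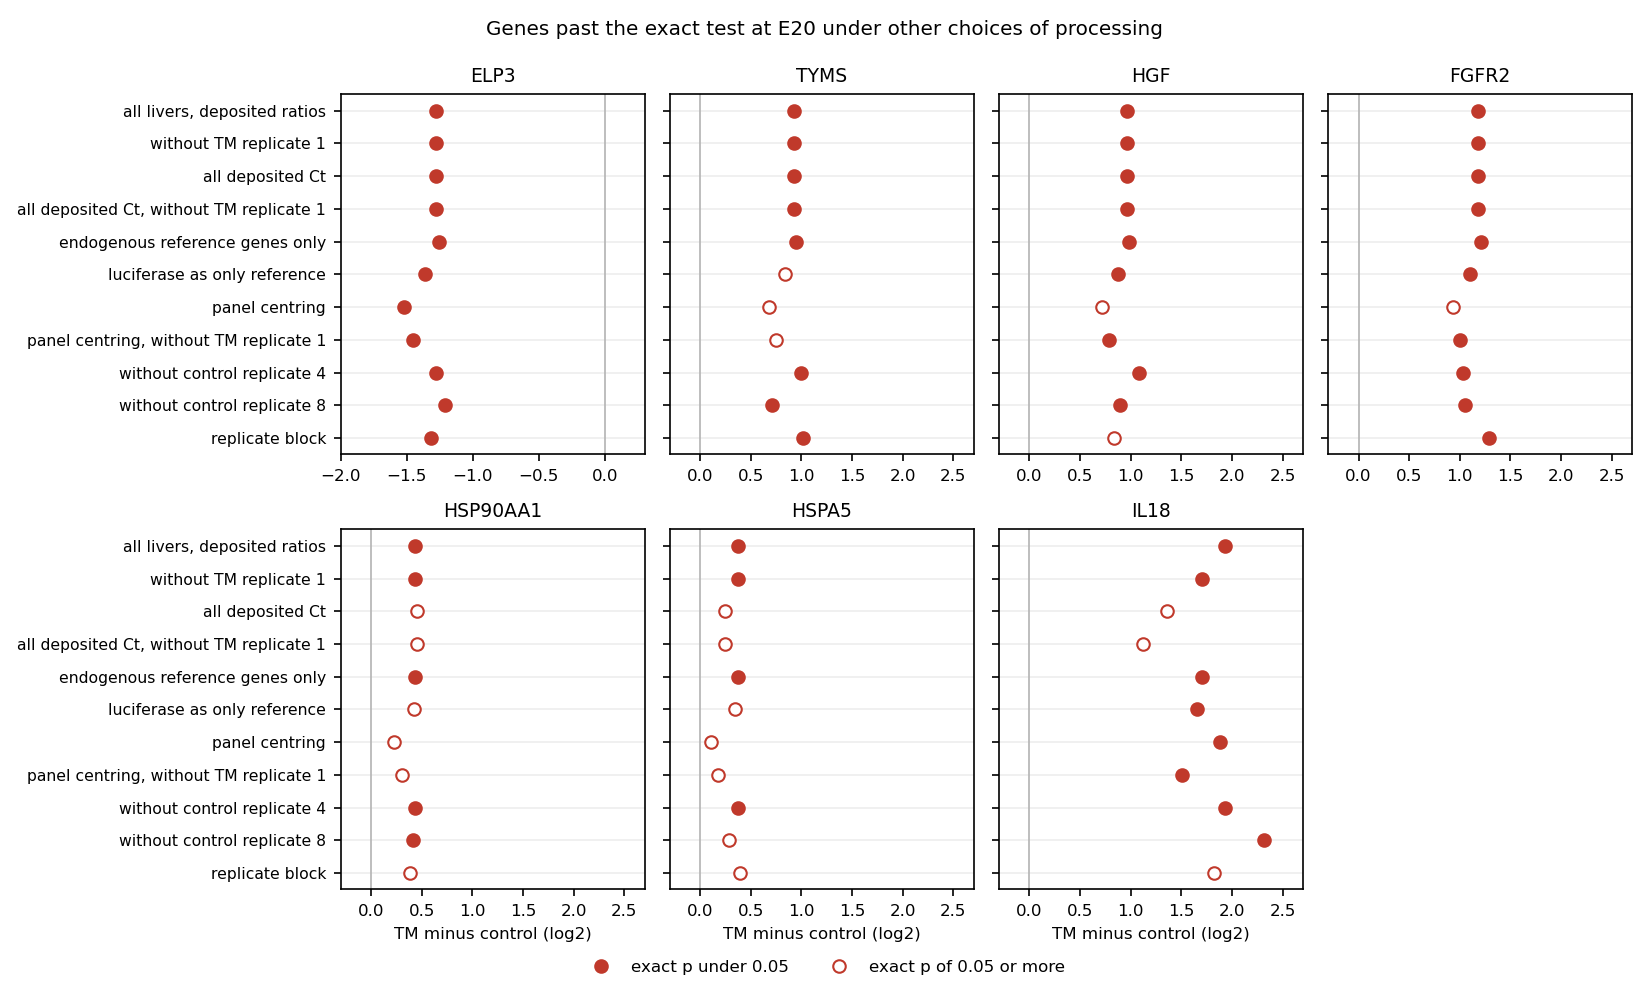
Difference TM minus control in log2 relative expression at E20 (horizontal axis) of 7 genes past the exact test with all livers, under the deposited ratios and 10 other choices of processing (rows). Filled points passed the exact test at an unadjusted p under 0.05. ELP3 is filled in every row, whereas HSP90AA1, HSPA5 and IL18 are open in both rows that use all deposited Ct.

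The 7 genes described above kept their direction in each of 13 other choices of processing. How often the exact test was passed differed between them, from 13 of 13 alternatives for ELP3, 12 for FGFR2, 11 for HGF and 10 each for IL18 and TYMS to 7 for HSP90AA1 and 6 for HSPA5. Several alternatives could not alter the result of a gene. Some change only which genes are tested, and leaving out a liver has no effect on a gene without a ratio in it. Passes of that kind repeat the first test and are no separate support. With the replicate block, HSP90AA1 had only 5 pairs of livers and could not pass whatever its values.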

How the data were processed

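Relative expression had been measured by the authors on Fluidigm chips with EvaGreen. The deposited ratios were computed by the authors from the Ct of the gene and the mean Ct of 4 reference genes of that liver (USP9X, STAB1, HPRT1 and luciferase). Each was set against an average across all groups. Ratios recomputed here matched the deposited ones with the geometric mean of those reference genes that had a Ct. The average was then taken over the 93 livers of the second trial. The authors' notes name R 3.6.2. Ct values were used for the quality of livers and for ratios that had been left blank. Of 92 assays, 81 panel genes were used, in 12 lists taken from the pathways of the paper, plus 2 lists of cell markers.

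The log2 of each ratio was taken, with nothing added. Genes with at least 6 livers per group were compared by an exact two-sided permutation test over every split of the livers and by limma 3.58.1 (R 4.3.3) with the Benjamini-Hochberg correction over 77 genes. Intervals of differences are 95%. With 7 against 8 livers the smallest exact p is 0.000155. Interactions were fitted for genes with at least 3 livers in each of the groups of E12 to E24. Tools were scipy 1.17.1, matplotlib 3.10.9, pandas 2.3.3 and numpy 2.4.6 under Python 3.11.15. The limma fit was tested on simulated data.

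Alternatives changed the livers, blanks, reference genes (endogenous only, luciferase only), centring, minimum of livers, a mean Ct above 24, the assays, the test and a replicate block. Leaving out control replicate 4, control replicate 8 or control replicate 7 of E16, and combining all Ct with the removal of TM replicate 1, were chosen after seeing the data. The members and lists were chosen with earlier results of these data known. Named are genes past a test at E20, genes named by the paper at E20, the members of each list with the smallest p and those of each interaction, and some further genes of each list, picked with their values known. Sequences and promoter motifs were not analysed here, and 1 gene that is included in the counts is not reported here.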

Additional observations from a re-analysis of the deposited data

Results flagged for a closer look

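Within the groups of the genes named, 66 sets of livers were examined for a liver far from the others, and 6 were found. The genes named include ALB, BINP3, ME and TIA1, which passed the exact test only once TM replicate 1 was left out. This count can therefore not be set against a chance rate. Of the 6 outlying values, 4 were those of TM replicate 1. In that liver ALB was at −12.98 (next TM liver 0.83), BINP3 at −5.83 (next −0.51), ME at −2.22 (next 0.15) and TIA1 at −2.10 (next −0.30). The 2 others were TYMS in control replicate 8, at −1.78 (next control liver −0.52), and InsR in TM replicate 2, at −1.63 (next TM liver −0.34). Control replicate 8 also had the highest mean Ct of the reference genes, 21.4 cycles.

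The TM effect differed between sampling points for 2 genes by a test of the difference itself. For CPT1 the effect at E20 minus that at E16 was −2.64 (adjusted p from limma = 0.0224). For ELP3 the effect at E20 minus that at E24 was −2.47 (adjusted p from limma = 0.00538), with opposite signs at both points. With all deposited Ct neither passed (adjusted p from limma = 0.193 for CPT1 and 0.0561 for ELP3). The change of CPT1 did not pass without control replicate 7 of E16 either (adjusted p from limma = 0.217).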

How the results depend on the processing

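The number of genes past the exact test, 8 with the deposited ratios, was 13 with endogenous reference genes only. TM replicate 1 has no value in that setting, and without that liver the deposited ratios gave 12. The number was 5 with luciferase only, 4 with every deposited Ct, 4 with panel centring and 0 with all livers after the Benjamini-Hochberg correction. It was 10, with APOB and ME added, when Student or Wilcoxon was chosen by normality and variance, as the methods state. It was 6 to 12 under the other alternatives apart from the replicate block. The count past the adjusted p of limma, 1 with the deposited ratios (ELP3), was 0 with all deposited Ct, with luciferase only and in one fit of the second trial, and 9 genes passed unadjusted. Leaving out TM replicate 1, control replicate 4 or control replicate 8 gave 0 to 2, with 0 without control replicate 4 and with IL18 added without control replicate 8 (adjusted p = 0.0452, 0.0452 to 0.846 over its alternatives). Of 7 same-numbered pairs of livers 5 correlated above 0.1 but not all (−0.18 to 0.25), and 1 liver correlated best with its own number. The labels do not say that a number marks a shared source, so the livers were taken to share only a number. With the number as a block, the exact test reversed the signs of the differences within pairs in every combination. By this test 5 genes passed, among them APOB, ELP3, FGFR2 and TYMS, and 0 passed with limma. HGF (exact sign-flip p = 0.0625, 7 pairs), HSP90AA1 (0.0625, 5 pairs), HSPA5 (0.0938, 6 pairs) and IL18 (0.125, 7 pairs) did not pass. With 5 pairs the smallest p of this test is 0.0625, so HSP90AA1 could not pass.

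Changes of effect at an unadjusted p were 4 against E12, 11 against E16 and 6 against E24. Against E16, the 1 gene became 0 with all deposited Ct, with endogenous reference genes only and without control replicate 7 of E16. Against E24 it became 0 with all deposited Ct and 2 with panel centring, where LXRA was added.

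Of the 28 genes followed through all alternatives, the direction turned for 10, none of which passed with all livers. Genes outside these 28 were not followed in the same way, and some of them turned too (DNMT3A, Hsp60 and TUBa1C without TM replicate 1). ALB, at −1.39, was −1.38 without control replicate 4 and 0.38 without TM replicate 1, 0.17 with panel centring in addition, 0.41 with endogenous reference genes and 0.26 with all Ct and without TM replicate 1. BINP3, at −0.02, was 0.71, 0.53, 0.73 and 0.71 in the same order, 0.069 without control replicate 4 and 0.083 without control replicate 8. The 4 positive values of ALB were all without TM replicate 1, which has no value where only endogenous reference genes are used. With luciferase only, ME was −0.0062, TIA1 −0.064 and GAPDH −0.0015. With all Ct, APOB was −0.96 and DIO3 −0.67, each with TM replicate 1 far below the other livers. With panel centring PPARA was −0.14, GAPDH −0.16 and CPT1 −0.088, and without TM replicate 1 PPARA was −0.075, GAPDH −0.093 and CPT1 −0.020. InsR was 0.036 with the block. The cause was not tested.

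Precision was limited by 6 to 8 livers per group, so that missing the threshold does not show that a gene kept its level. Temperature cannot be told apart from the incubator.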

Other observations

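Outside the 81 genes, 5 further assays had values in at least 6 livers of each group, and none passed the exact permutation test at an unadjusted p. ActB, a cytoskeletal actin, differed by 0.28 between TM and control livers (n = 7 each, exact permutation p = 0.123), and HDAC1, a histone deacetylase, had −0.11 ± 0.75 in the TM group (n = 7) and 0.32 ± 0.42 in the control group (n = 8, exact permutation p = 0.192). PPARG, a regulator of lipid storage, differed by 0.56 (exact permutation p = 0.487), EIF3, of translation initiation, by −0.53 with TM replicate 1 at −4.62 (p = 0.548) and TLR4, a receptor of innate immunity, by −0.64 (p = 0.879).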
